A study of Mus musculus with 24 samples.

Results

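The genes described are 9 components of the striatal cAMP and DARPP-32 pathway, *Ppp1r1b*, *Arpp21*, *Gnal*, *Gng7*, *Rgs9*, *Adcy5*, *Pde10a*, *Pde1b* and *Pde2a*. They were picked out by gene symbol, and all 9 were found among the 24079 genes of the count table. RNA had been sequenced from 2 regions of the mouse brain and from 2 kinds of preparation of each lysate. The regions were dorsal striatum, DS, and nucleus accumbens, written Acb as in the study. Heavy polysomal fractions hold mRNAs that carry several ribosomes and were taken from a sucrose gradient, while whole lysates hold the total RNA of the sample loaded on it. Wild-type mice were compared with their rpS6P-/- littermates, knockin mice in which the phosphorylated residues of ribosomal protein S6 are replaced by alanine, so that the protein is made but cannot be phosphorylated. Mice of both sexes on a mixed background were used, no agent was given for these libraries in the labels, and each library came from pooled mice. Each of the 8 combinations of region, genotype and preparation has 3 libraries. Since pools were sequenced, the spread between replicates is one between libraries of pools and not between single mice.

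Most neurons of the Acb and DS are medium spiny neurons, in which some of the dopamine and adenosine receptors act through the G protein alpha subunit Gαolf on adenylyl cyclase 5. The cAMP formed activates protein kinase A, which phosphorylates DARPP-32 and thereby turns it into an inhibitor of protein phosphatase 1. Phosphodiesterases end the signal by hydrolysing cAMP and cGMP, and the RGS protein RGS9 speeds the return of inhibitory G proteins to their inactive state.

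Assigned reads ranged from 9280589 to 34703044 per library, and the 9 genes together took 0.568% to 0.896% of them. *Rps6*, which carries the mutation, was measured at 270 to 488 CPM (reads of a gene scaled to the library's assigned reads with trimmed means) in all 24 libraries and did not pass the test between genotypes in any of the 4 comparisons, and a replacement of amino acids leaves the count of its mRNA no check of the labels. Of 16 other medium spiny neuron markers, none averaged under 1 CPM in any group, and their summed level averaged 5369 to 6721 CPM in the Acb and 4840 to 5981 CPM in the DS. Markers of other cells differed between the regions. The summed level of 8 markers of cortical excitatory neurons was 192 to 391 CPM in Acb libraries and 993 to 1410 CPM in DS libraries, and that of 6 astrocyte markers was 667 to 975.5 CPM in the Acb and 384 to 624 CPM in the DS. In bulk tissue, fewer cells of a type and less RNA per cell cannot be told apart, and this holds for every difference between the regions given here.

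The coding sequences of the 9 genes differ widely in length, and coding length moved with the difference between heavy polysomes and lysates across all genes. Sequences are therefore shown for the 2 genes with the shortest complete coding sequences, *Gng7* and, by a short form, *Arpp21*. In the GENCODE M21 annotation of GRCm38, the longest coding sequence is 207 bases in *Gng7*, 582 in *Ppp1r1b*, 1344 in *Gnal*, 1605 in *Pde1b*, 2025 in *Rgs9*, 2427 in *Arpp21*, 2550 in *Pde10a*, 2835 in *Pde2a* and 3786 in *Adcy5*. *Arpp21* also has 2 transcripts with a complete coding sequence of only 264 bases among its 10, and reads counted per gene do not separate the short form from the long one. Other genes have shorter complete forms too, down to 402 bases in *Gnal*, 474 in *Ppp1r1b* and 696 in *Rgs9*. Only *Arpp21* was also fitted at a short form, and the other genes were fitted at their longest coding sequence. The fit at the short form changes only the length assigned to *Arpp21*, not the reads counted, and measures neither form. Both sequences below are written 5′ to 3′ with the start and stop codon in capitals, both genes lie on the minus strand, and without the stop codon they hold 69 codons in *Gng7* and 88 in the short form of *Arpp21*.
Gng7: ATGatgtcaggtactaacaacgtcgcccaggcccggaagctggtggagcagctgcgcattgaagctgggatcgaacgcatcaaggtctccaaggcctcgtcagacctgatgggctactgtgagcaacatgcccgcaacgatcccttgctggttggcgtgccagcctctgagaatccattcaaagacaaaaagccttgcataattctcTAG
Arpp21, short form: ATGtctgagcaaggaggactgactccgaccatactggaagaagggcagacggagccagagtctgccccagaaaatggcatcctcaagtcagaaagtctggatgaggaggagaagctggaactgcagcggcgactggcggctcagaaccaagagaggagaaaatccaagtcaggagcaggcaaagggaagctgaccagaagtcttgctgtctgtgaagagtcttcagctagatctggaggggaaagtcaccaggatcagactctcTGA

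In GRCm38, *Ppp1r1b* (Entrez 19049) lies at chr11:98348406-98357796 and *Arpp21* (74100) at chr9:112065091-112236288. *Gnal* (14680) lies at chr18:67088298-67226792, *Gng7* (14708) at chr10:80948624-81014925 and *Rgs9* (19739) at chr11:109225348-109298181. *Adcy5* (224129) lies at chr16:35154494-35305743, *Pde10a* (23984) at chr17:8525187-8986648, *Pde1b* (18574) at chr15:103503034-103530056 and *Pde2a* (207728) at chr7:101421691-101512829. Reads had been counted by strand over exons of the whole gene. *Pde2a* shares 3893 exonic bases on its own strand with the readthrough gene *Gm45837*, which has no row in the count table, and no other of the 9 shares exonic bases with a gene on its strand.

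*Ppp1r1b*, which encodes DARPP-32, was the highest of the 9 genes per kilobase of merged exons in all 8 groups, at 360 ± 17.5 CPM per kilobase in wild-type Acb lysates (SD, n = 3) and 473 ± 40.4 in wild-type DS lysates. Next in wild-type DS lysates came *Pde1b* at 277 ± 30.5 CPM per kilobase, *Arpp21* at 223 ± 41.4 and *Gng7* at 217 ± 23.7, and in this order each overlapped the next between libraries, while *Pde1b* and *Gng7* did not overlap. Below them lay *Pde10a* at 114 ± 14.9 and *Pde2a* at 109 ± 11.0, whose libraries also overlapped. *Rgs9* at 68.4 ± 2.24, *Gnal* at 64.2 ± 9.40 and *Adcy5* at 56.0 ± 2.24 were the lowest, in CPM per kilobase, and *Gnal* overlapped both of its neighbours. This order depends on the length used. With the transcript of the longest coding sequence in place of merged exons, *Arpp21* came first and *Ppp1r1b* next in every lysate group.

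**Figure D1:**
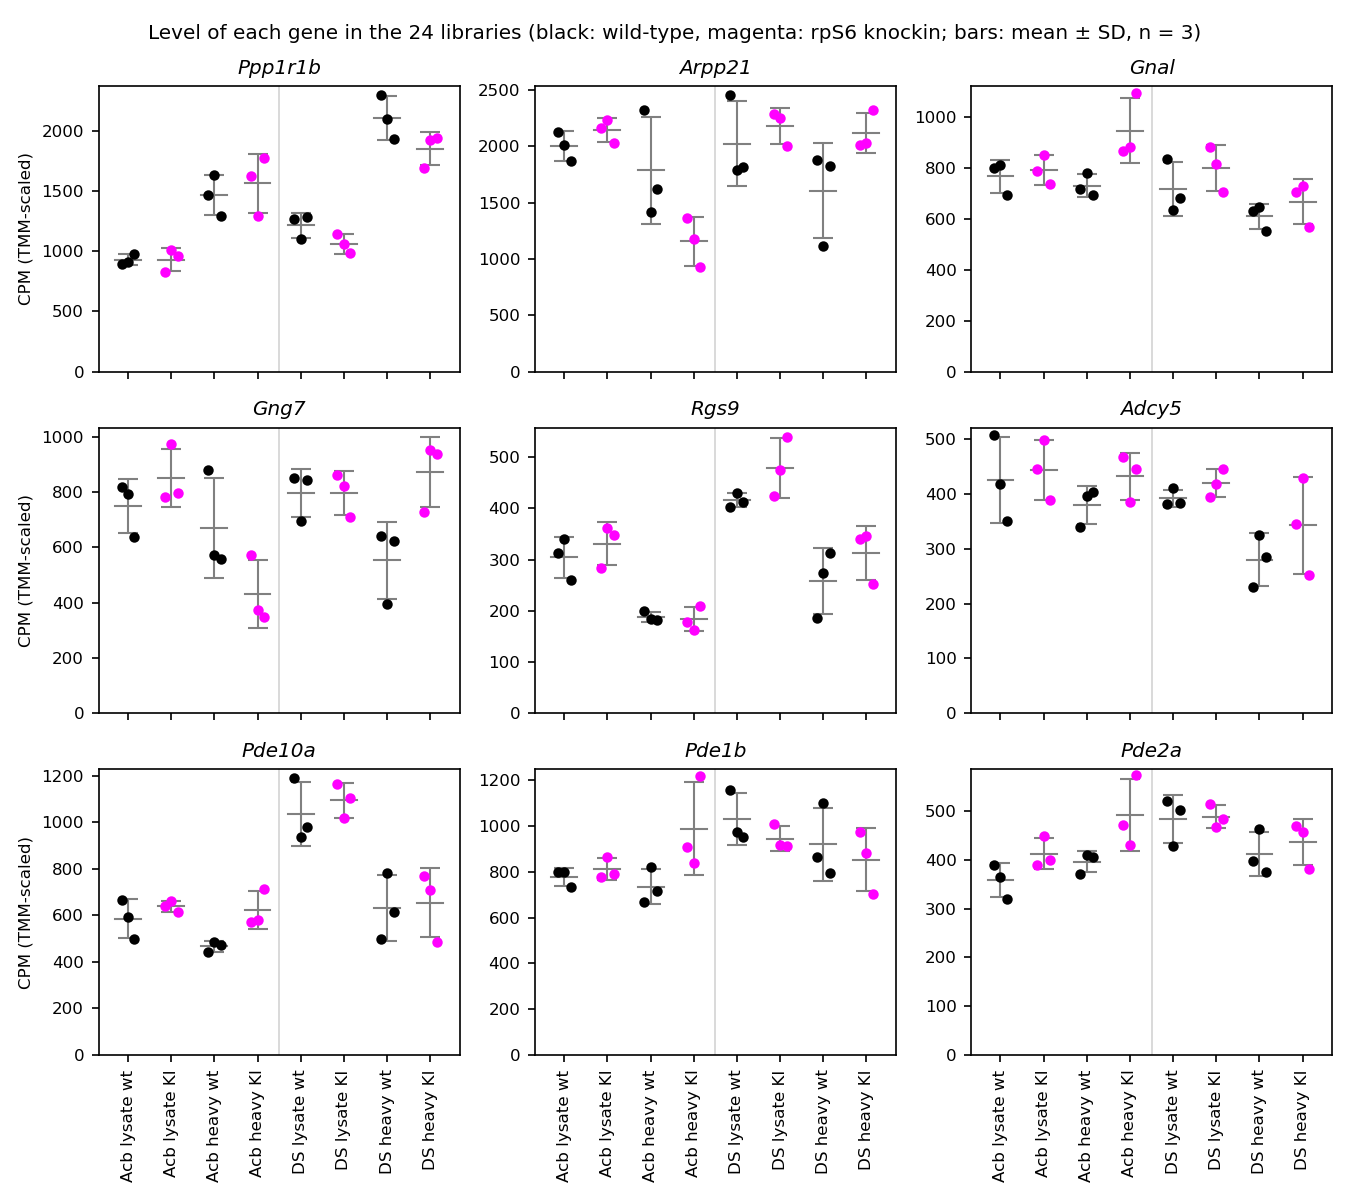
Level of each of the 9 genes in all 24 libraries in CPM, 1 panel per gene, with the 4 Acb groups left and the 4 DS groups right of the grey line (points: libraries, black wild-type and magenta rpS6P-/-, bars: mean ± SD, n = 3). *Ppp1r1b* is higher in heavy than in lysate libraries, *Rgs9* lower, *Pde10a* is highest in DS lysates, and *Arpp21* and *Gng7* move together in the heavy libraries.

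The question of the comparison of heavy polysomes with whole lysates is how much of each mRNA sits on many ribosomes, relative to the other mRNAs of the same preparation. *Ppp1r1b* was enriched in heavy polysomal fractions in both regions and genotypes, and *Rgs9* was depleted from them in all 4 comparisons. Between 3 and 5 of the 9 genes passed the test (edgeR's quasi-likelihood test, adjusted p under 0.05) in each comparison. In wild-type Acb 3 passed, 1 higher and 2 lower in heavy fractions, where 25.9% of all genes tested passed (13.0% higher, 12.9% lower). In rpS6P-/- Acb 4 passed, 1 higher and 3 lower, against 17.2% of all genes (7.70% higher, 9.50% lower). In wild-type DS 5 passed, 1 higher and 4 lower, against 24.3% (12.8% higher, 11.5% lower), and in rpS6P-/- DS 3, 1 higher and 2 lower, against 28.6% (13.8% higher, 14.8% lower). The median log2 fold change of the 9 genes was -0.21, -0.06, -0.33 and -0.20 in the same order, while the median over all genes tested lay between 0.00 and 0.03. Below, some genes are said not to overlap between preparations or between regions. The share of all genes without such overlap is not given for these comparisons, so this is a description of the libraries only.

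**Figure D2:**
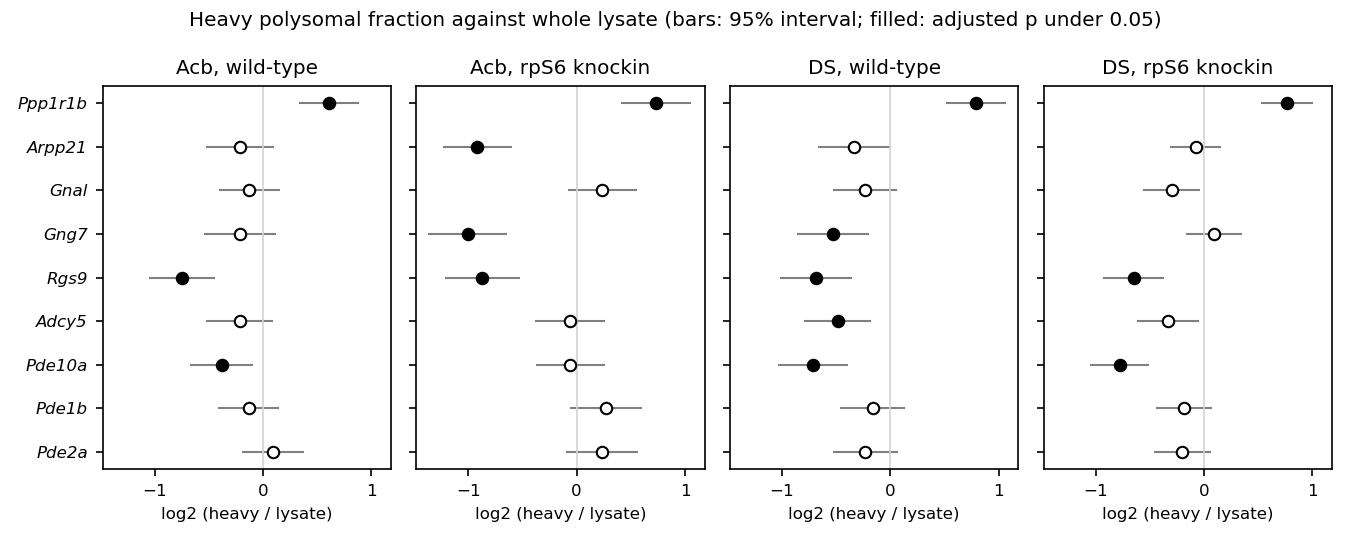
Log2 fold change of heavy polysomal fraction over whole lysate for each gene, 1 panel for each region and genotype (points: edgeR estimate, bars: 95% interval, filled points: adjusted p under 0.05, 3 libraries of each kind). *Ppp1r1b* lies between 0.61 and 0.79 and *Rgs9* between -0.87 and -0.65 in all 4 panels, while *Arpp21* and *Gng7* fall furthest below 0 in the rpS6P-/- Acb.

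*Ppp1r1b* stood at 893, 912 and 979 CPM in wild-type Acb lysates and at 1465, 1629 and 1297 CPM in the heavy fractions of the same numbers. In rpS6P-/- Acb it stood at 824, 1006 and 961 CPM in lysates and 1622, 1294 and 1774 CPM in heavy fractions. In the DS its lysates held 1268, 1098 and 1286 CPM in wild-type and 1144, 1057 and 983 CPM in rpS6P-/- mice, and its heavy fractions 2299, 2096 and 1932 CPM and 1692, 1926 and 1939 CPM. The 2 preparations did not overlap anywhere: the lowest of the 12 heavy libraries, at 1294 CPM, lay above the highest of the 12 lysates, at 1286 CPM. The log2 fold change of heavy over lysate was 0.61 ± 0.13 (SE, adjusted p = 9.35e-04) in wild-type Acb, 0.73 ± 0.15 (0.00138) in rpS6P-/- Acb, 0.79 ± 0.13 (3.34e-05) in wild-type DS and 0.77 ± 0.12 (4.55e-07) in rpS6P-/- DS. Within pairs of heavy and lysate libraries of the same number, the ratio of heavy to lysate CPM ran from 1.29 to 1.97. That it was above 1 in 12 of 12 follows from the lack of overlap and adds nothing to it. Coding length moves with this enrichment: across all genes with at least 50 reads on average, Spearman's rho between coding length and log2 fold change was -0.57, -0.32, -0.62 and -0.67 in the 4 comparisons, over at least 11309 genes, which are not independent replicates. With the trend on coding length removed from each library, an alternative chosen after seeing the data, the log2 fold change of *Ppp1r1b* was 0.15 (adjusted p = 0.506), 0.57 (0.0250), 0.32 (0.135) and 0.24 (0.0998), so that the call was kept only in rpS6P-/- Acb.

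*Rgs9* stood at 313, 340 and 260 CPM in wild-type Acb lysates and at 199, 184 and 181 CPM in the heavy fractions. In rpS6P-/- Acb it stood at 283, 361 and 349 CPM and at 178, 163 and 209 CPM, in the same order of preparations. In the DS, lysates held 404, 431 and 413 CPM in wild-type and 424, 474 and 539 CPM in rpS6P-/- mice, and heavy fractions 187, 274 and 314 CPM and 341, 346 and 252 CPM. Within each region and genotype, all 3 heavy libraries lay below all 3 lysates. It follows that the ratio of heavy to lysate within pairs of the same number was below 1 in 12 of 12, and it ran from 0.453 to 0.804. The log2 fold change was -0.75 ± 0.14 (SE, adjusted p = 2.60e-04), -0.87 ± 0.16 (4.81e-04), -0.69 ± 0.16 (0.00156) and -0.65 ± 0.13 (1.00e-04) in wild-type Acb, rpS6P-/- Acb, wild-type DS and rpS6P-/- DS. *Rgs9* passed the test in each of the 4 comparisons under all 11 alternatives and in all 6 fits of each comparison that left out 1 library, with the trend on coding length removed among them (log2 fold changes from -0.93 to -0.43).

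Of the phosphodiesterases, *Pde10a*, whose product hydrolyses both cAMP and cGMP, was depleted from heavy polysomes in the DS. Its DS lysates held 1190, 937 and 979 CPM in wild-type and 1163, 1016 and 1102 CPM in rpS6P-/- mice, and the heavy fractions held 498, 782 and 614 CPM and 767, 707 and 487 CPM. In the Acb, lysates held 665, 590 and 499 CPM and 640, 661 and 614 CPM, and heavy fractions 442, 485 and 471 CPM and 573, 579 and 714 CPM. The 2 preparations overlapped in rpS6P-/- Acb only. The log2 fold change was -0.71 ± 0.15 (SE, adjusted p = 6.81e-04) in wild-type DS, -0.78 ± 0.13 (3.18e-06) in rpS6P-/- DS, -0.38 ± 0.14 (0.0420) in wild-type Acb and -0.06 ± 0.15 (0.853) in rpS6P-/- Acb. The call in wild-type Acb was lost without heavy replicate 1 (adjusted p = 0.119) or 3 (0.0824) and without lysate replicate 1 (0.215) or 2 (0.122). With the coding length trend removed the values in wild-type DS and wild-type Acb missed the threshold (log2 fold change -0.36, adjusted p = 0.0862, and -0.15, 0.480), and rpS6P-/- DS kept its call at -0.40 (0.00908). *Pde1b*, a calcium- and calmodulin-dependent enzyme, and *Pde2a*, a cGMP-stimulated one, passed in no comparison, with log2 fold changes of -0.18 to 0.27 and -0.23 to 0.23. *Pde1b* passed in rpS6P-/- DS without heavy replicate 1 (log2 fold change -0.30, adjusted p = 0.0444), and *Pde2a* in wild-type Acb with the coding length trend removed (0.38, 0.0423).

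*Gng7*, the G protein gamma subunit that assembles with Gαolf, and *Arpp21*, which encodes a cAMP-regulated phosphoprotein rich in these neurons, were depleted most in the rpS6P-/- Acb. *Gng7* stood at 783, 972 and 795 CPM in rpS6P-/- Acb lysates and at 572, 374 and 347 CPM in the heavy fractions, a log2 fold change of -1.01 ± 0.17 (SE, adjusted p = 1.72e-04). *Arpp21* stood at 2167, 2234 and 2027 CPM and at 1361, 1180 and 929 CPM, a log2 fold change of -0.92 ± 0.15 (adjusted p = 9.19e-05). In both genes all 3 heavy libraries lay below all 3 lysates, and the calls were kept in all 6 fits that left out 1 library. *Gng7* also fell in wild-type DS, from 850, 696 and 843 CPM in lysates to 642, 394 and 622 CPM in heavy fractions (log2 fold change -0.53 ± 0.16, adjusted p = 0.0130). That call was lost without lysate replicate 1 (adjusted p = 0.0657) or 3 (0.0842). In wild-type Acb and rpS6P-/- DS the log2 fold change of *Gng7* was -0.21 ± 0.16 (0.367) and 0.09 ± 0.12 (0.656), and that of *Arpp21* was -0.22 ± 0.15 in wild-type Acb (0.323), -0.33 ± 0.16 in wild-type DS (0.137) and -0.08 ± 0.11 in rpS6P-/- DS (0.678). Without heavy replicate 1 of the wild-type Acb, both passed there, at -0.46 for *Gng7* (0.0275) and -0.45 for *Arpp21* (0.0200), and *Arpp21* passed in wild-type DS without heavy replicate 1 (-0.47, 0.0483) and with lysates paired to their heavy fractions (-0.36, 0.0376). With the coding length trend removed, *Gng7* changed to -0.33 in rpS6P-/- Acb (0.169), to -0.85 in wild-type DS (1.45e-05) and to -0.51 in rpS6P-/- DS (9.01e-04). *Arpp21* changed to -0.86 in rpS6P-/- Acb (2.97e-04) at its long coding sequence, and at its short one to -0.50, -0.48, -0.75 and -0.70 in wild-type Acb, rpS6P-/- Acb, wild-type DS and rpS6P-/- DS, each past the threshold (adjusted p from 7.09e-07 to 0.0171).

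Of the last pair, *Adcy5*, the main adenylyl cyclase of these neurons, fell in heavy fractions of wild-type DS from 383, 410 and 384 CPM in lysates to 230, 326 and 284 CPM (log2 fold change -0.49 ± 0.15, adjusted p = 0.0144). The call was lost without heavy replicate 1 (0.0872) or lysate replicate 2 (0.0831), and with the coding length trend removed the value was 0.07 (0.822). In rpS6P-/- DS *Adcy5* stood at -0.33 ± 0.14 (0.0648), with -0.36 (0.0417) for paired lysates and -0.52 (0.00565) without heavy replicate 2. *Gnal*, which encodes Gαolf, passed in no comparison, with log2 fold changes of -0.30 to 0.24. The lowest, in rpS6P-/- DS (adjusted p = 0.0655), passed without heavy replicate 1 (0.0314) or 2 (0.0410) and with the coding length trend removed (-0.35, 0.0242).

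The comparison of the regions asks where each gene's mRNA is more abundant. In lysates, *Pde10a* showed the largest difference of the 9 genes, at 499 to 665 CPM in the 6 Acb libraries and 937 to 1190 CPM in the 6 DS libraries, with no overlap. The log2 fold change of Acb over DS was -0.79 ± 0.11 (SE, adjusted p = 7.26e-07) in wild-type and -0.75 ± 0.08 (1.18e-08) in rpS6P-/- mice, and it passed the test under all 11 alternatives and in all 6 fits of each genotype without 1 library. *Rgs9* was lower in the Acb as well, at -0.42 ± 0.11 (0.00859) and -0.51 ± 0.10 (4.86e-04). In wild-type lysates 5 of the 9 genes passed, all lower in the Acb, where 12.7% of all genes tested passed and 6.15% were lower. In rpS6P-/- lysates 2 passed, *Pde10a* and *Rgs9*, where 10.9% passed and 6.03% were lower.

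**Figure D3:**
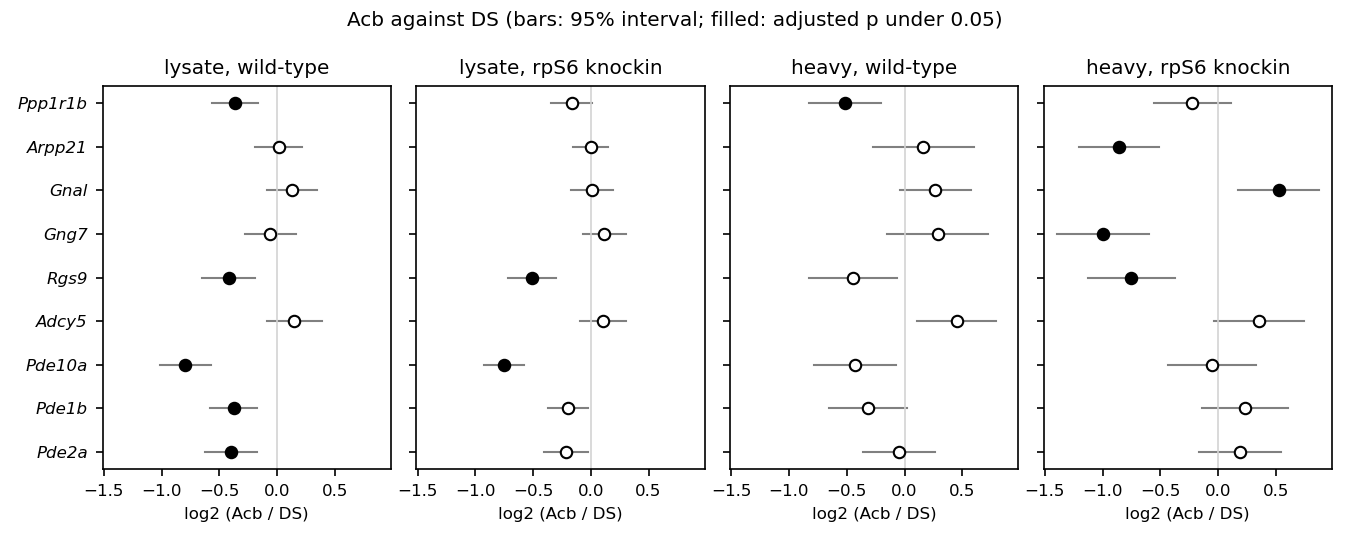
Log2 fold change of Acb over DS for each gene, 1 panel for each preparation and genotype (points: edgeR estimate, bars: 95% interval, filled points: adjusted p under 0.05, 3 libraries per region). *Pde10a* lies at -0.79 and -0.75 in lysates and *Rgs9* below 0 in all 4 panels. *Adcy5* lies above 0 in all 4 panels, and *Gnal* lies at 0.007 in rpS6P-/- lysates and above 0 in the others. *Arpp21* and *Gng7* lie between -0.06 and 0.12 in lysates, at 0.16 and 0.29 in wild-type heavy fractions and at -0.86 and -0.997 in rpS6P-/- heavy fractions.

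The other 3 genes called in wild-type lysates were *Ppp1r1b* at -0.36 ± 0.10 (adjusted p = 0.00884), *Pde1b* at -0.38 ± 0.10 (0.00860) and *Pde2a* at -0.40 ± 0.11 (0.0111). *Pde1b* stood at 799, 799 and 733 CPM in the Acb and at 1159, 975.2 and 953 CPM in the DS, and *Pde2a* at 389, 366 and 320 CPM and at 520, 428 and 502 CPM. No Acb library reached the lowest DS library in either gene. These calls rested in part on single libraries. *Ppp1r1b* missed the threshold without Acb lysate replicate 2 (0.0623), *Rgs9* without Acb replicate 3 (0.0666) or DS replicate 2 (0.0569), *Pde1b* without DS replicate 1 (0.0982) and *Pde2a* without Acb replicate 3 (0.0615) or DS replicate 1 (0.0750). In rpS6P-/- lysates the same 3 genes stood at -0.17, -0.20 and -0.22 (adjusted p from 0.145 to 0.264), and whether they differ between genotypes was not tested. *Gnal*, *Gng7*, *Adcy5* and *Arpp21* lay between -0.06 and 0.15 in the lysates of both genotypes, with 95% intervals that reached no lower than -0.28 and no higher than 0.38.

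Cell type markers moved with region. Of the 8 cortical excitatory markers 7 were called lower in Acb than in DS lysates in both genotypes, and 4 and 3 of 6 astrocyte, 3 and 3 of 6 oligodendrocyte and 4 and 2 of 5 microglial markers were called higher, where 12.7% and 10.9% of all genes were called in either direction. Of the 16 other medium spiny neuron markers, 6 were called higher and 4 lower in the Acb in both genotypes. Of the small lists, 2 of 4 and 1 of 3 choroid plexus markers, 1 and 1 of 3 cholinergic, 2 and 2 of 4 other interneuron and 2 and 1 of 2 septal markers were called higher, 1 other interneuron marker was called lower in both genotypes, and 0 of 5 endothelial markers were called. In heavy fractions 7 of the 8 cortical markers were again called lower in both genotypes. The part of these markers in the differences of the 9 genes was not tested.

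In heavy fractions the picture depended on the gene. *Ppp1r1b* was the 1 gene called in wild-type mice, at -0.52 ± 0.15 (SE, adjusted p = 0.0369), where 8.15% of all genes passed and 3.43% were lower, and the call was lost without Acb replicate 1 (0.118) or 3 (0.204) or DS replicate 1 (0.119). *Rgs9* at -0.45 ± 0.18 (0.157) and *Adcy5* at 0.45 ± 0.16 (0.108) missed the threshold and passed it without DS replicate 1 (0.0371) and DS replicate 2 (0.0412), respectively. *Pde10a* did not overlap between the regions there and stood at -0.43 ± 0.17 (0.144). Over the 11 alternatives in wild-type heavy fractions, *Ppp1r1b* passed in 11, *Rgs9* in 6, *Pde10a* in 5 and *Adcy5* and *Pde1b* in 1 each. Removal of the coding length trend, which moved the median of all genes from 0.03 to -0.14 in this comparison, gave -0.61 for *Rgs9* (0.0164) and -0.60 for *Pde10a* (0.0165). In rpS6P-/- mice 4 passed, where 18.6% of all genes did, 3 of them lower in the Acb, as were 10.7% of all genes, and *Gnal* higher, as were 7.89%. *Gng7* stood at 572, 374 and 347 CPM in the Acb and at 727, 951 and 939 CPM in the DS (log2 fold change -0.997 ± 0.19, adjusted p = 0.00104). *Arpp21* stood at 1361, 1180 and 929 CPM against 2012, 2027 and 2326 CPM (-0.86 ± 0.17, 0.00106). Neither gene overlapped between the regions, and *Rgs9* also fell, at -0.75 ± 0.18 (0.00554). With the coding length trend removed, the value of *Gng7* was 0.17 (0.532), that of *Arpp21* at its short coding sequence 0.11 (0.669) and that of *Rgs9* -0.97 (7.79e-05). *Gnal* stood at 865, 881 and 1095 CPM in the Acb and at 705, 731 and 568 CPM in the DS, 0.52 ± 0.17 (0.0336). It missed the threshold without Acb replicate 2 (0.0502) or 3 (0.110) or DS replicate 2 (0.0589) or 3 (0.153). It passed in 6 of 11 alternatives and missed the threshold with the replicate number as a block (0.103), with the transcript length trend removed (0.140), with both (0.285) and with the coding length trend removed, at either coding sequence of *Arpp21* (0.0985 and 0.0980).

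The comparison of rpS6P-/- with wild-type mice asks whether loss of rpS6 phosphorylation changes these mRNAs. None of the 9 genes passed the test in any of the 4 comparisons. In Acb lysates 0.00650% of all genes passed, in DS lysates 0.122%, in DS heavy fractions 0.0440% and in Acb heavy fractions 0%. In lysates the 9 log2 fold changes lay between -0.0026 and 0.20 in the Acb and between -0.22 and 0.19 in the DS, with 95% intervals inside -0.38 to 0.43. At an unadjusted p under 0.05 edgeR gave 0 of the 9 in Acb lysates (2.96% of all genes), 1 in DS lysates (*Ppp1r1b*, 9.07%), 2 in DS heavy fractions (*Gng7* and *Arpp21*, 6.42%) and 6 in Acb heavy fractions (21.7%). In the same order DESeq2 called 0, 0, 0 and 3 of the 9 at an adjusted p under 0.05, against 0.00650%, 0.609%, 0.107% and 6.72% of all genes. The 3 were *Arpp21* (-0.60, adjusted p = 0.0309), *Gng7* (-0.61, 0.0439) and *Pde10a* (0.45, 0.0321), and an edgeR fit of all 24 libraries called the first pair there (0.0159 and 0.0216).

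**Figure D4:**
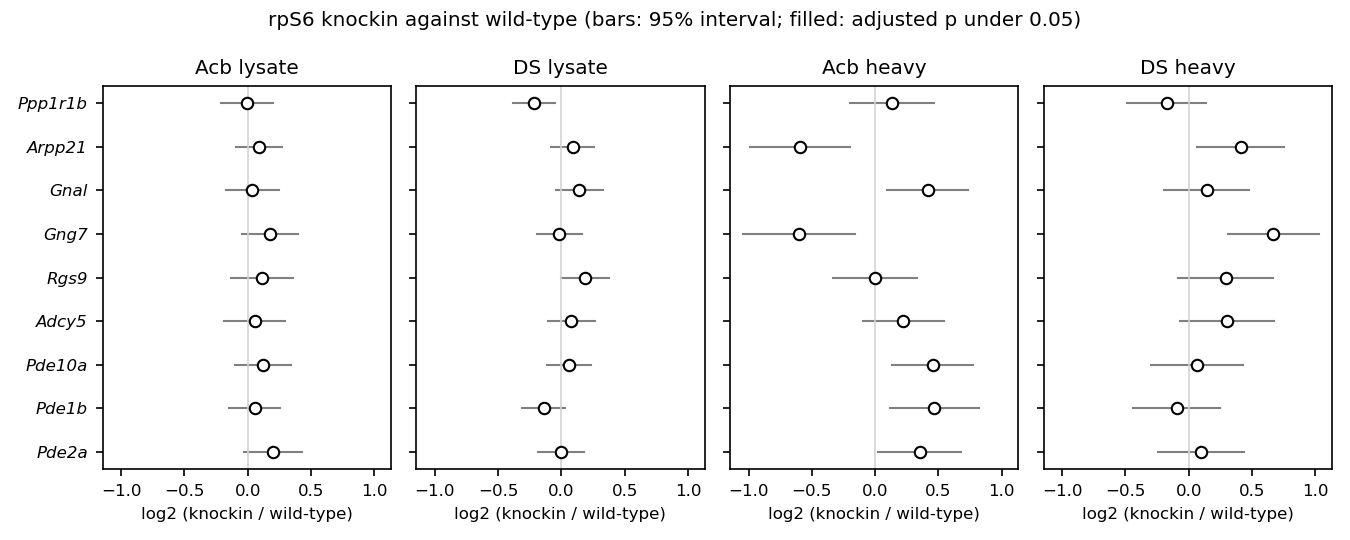
Log2 fold change of rpS6P-/- over wild-type for each gene, 1 panel for each region and preparation (points: edgeR estimate, bars: 95% interval, no point is filled since none had an adjusted p under 0.05, 3 libraries per genotype). The lysate panels are narrow around 0, and in heavy fractions *Arpp21* and *Gng7* lie below 0 in the Acb and above 0 in the DS.

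In Acb heavy fractions *Gng7* stood at 878, 574 and 557 CPM in wild-type and at 572, 374 and 347 CPM in rpS6P-/- mice, and *Arpp21* at 2324, 1415 and 1626 CPM and at 1361, 1180 and 929 CPM. The genotypes overlapped in *Gng7* and did not in *Arpp21*, which was lower in rpS6P-/- mice, as were 15.6% of all genes with at least 50 reads on average without overlap. In DS heavy fractions *Gng7* stood at 642, 394 and 622 CPM in wild-type and at 727, 951 and 939 CPM in rpS6P-/- mice, and *Arpp21* at 1875, 1119 and 1829 CPM and at 2012, 2027 and 2326 CPM. There rpS6P-/- libraries were the higher ones in both genes, with no overlap, as in 5.56% of all genes with at least 50 reads on average. The log2 fold changes in the Acb were -0.60 ± 0.21 for *Gng7* (SE, adjusted p = 0.135) and -0.59 ± 0.19 for *Arpp21* (0.119), and those in the DS 0.67 ± 0.18 (0.300) and 0.41 ± 0.17 (0.742). Wild-type Acb heavy replicate 1 was the highest of its 3 libraries in both genes, and without it the log2 fold changes in the Acb were -0.35 and -0.35.

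The other 4 genes under the unadjusted threshold in Acb heavy fractions were higher in rpS6P-/- mice with no overlap, as in 13.5% of all genes with at least 50 reads on average. *Pde1b* stood at 670, 820 and 717 CPM in wild-type and at 907, 840 and 1220 CPM in rpS6P-/- mice (log2 fold change 0.47 ± 0.17, adjusted p = 0.139). *Pde10a* stood at 442, 485 and 471 CPM and at 573, 579 and 714 CPM (0.46 ± 0.15, 0.129). *Gnal* and *Pde2a* differed by 0.41 ± 0.15 (0.143) and 0.35 ± 0.16 (0.207), and replicate 3 was the highest rpS6P-/- library in all 4 of these genes. *Rgs9* stood at 0.0032 ± 0.16, *Ppp1r1b* at 0.13 ± 0.16 and *Adcy5* at 0.22 ± 0.15, with overlap in each.

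The difference in Acb heavy fractions moved with coding length across all genes. Over genes with at least 50 reads on average, Spearman's rho between coding length and log2 fold change was 0.49 in Acb heavy fractions (12134 genes) and 0.05 in DS heavy fractions (11580 genes), as a description across genes that are not independent. *Gng7* is near the short end of this range, with 48 of the 12134 genes having a coding sequence no longer than its own. A trend fitted over length rests on few genes there. Over all 11 alternatives the value of *Gng7* in Acb heavy fractions ran from -0.66 to 0.27. Whether coding length accounts for its difference was not tested. Removal of the coding length trend was an alternative chosen after seeing the data. With it, the value of *Gng7* in Acb heavy fractions was 0.27 (adjusted p = 0.412). That of *Arpp21* was -0.75 (0.0968) at its long coding sequence and 0.18 (0.572) at its short one. Both *Arpp21* values come from the same reads, and only the length at which the trend was subtracted differs. The change between them therefore follows from the fitted trend. The forms of *Arpp21* were not measured, and which of them was counted cannot be told from these values.

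**Figure D5:**
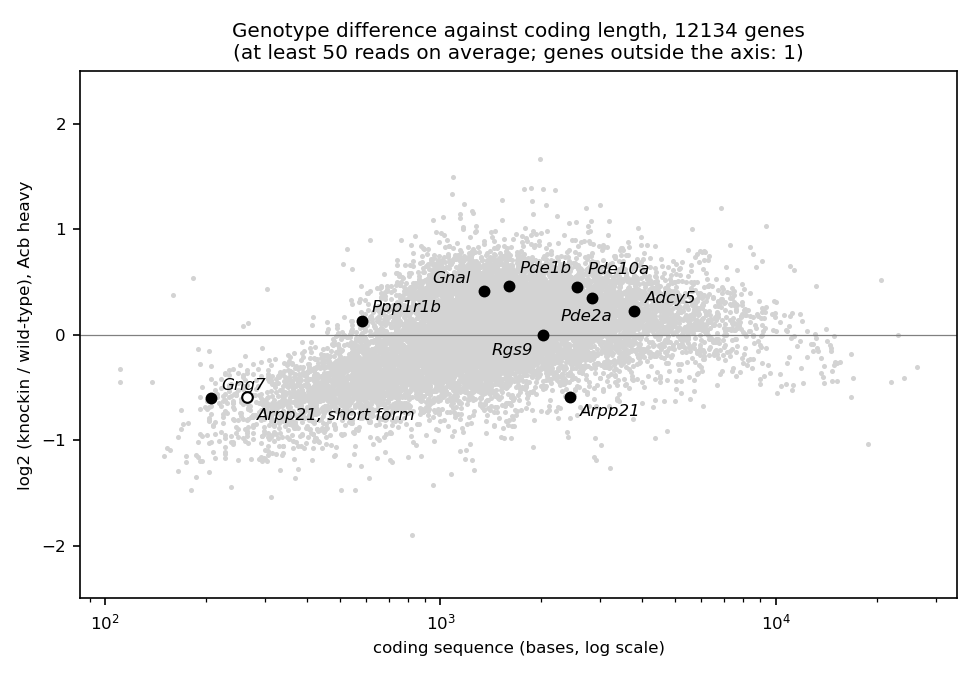
Log2 fold change of rpS6P-/- over wild-type in Acb heavy fractions against coding length on a log axis for 12134 genes (grey) and the 9 genes (black), with the short form of *Arpp21* drawn as an open circle at the same fold change. The grey cloud rises with length, *Gng7* lies inside it at the short end, and *Arpp21* lies at its lower edge by its long coding sequence and inside it by its short one.

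The ratio of heavy to lysate was compared between genotypes as an interaction over the 12 libraries of a region. For this ratio the study used another method (Xtail) and reported altered genes in both regions, many more in the Acb. The shares below belong only to the tests used here, edgeR unless another is named. None of the 9 genes passed in the Acb or the DS, where 0% of all genes passed in either region, and 2 of 9 in the Acb (11.9% of all genes) and 1 of 9 in the DS (4.90%) had an unadjusted p under 0.05. DESeq2 called 0 of the 9 in both. The 3 values were those of *Gng7* (-0.79 ± 0.24, SE, adjusted p = 0.250) and *Arpp21* (-0.69 ± 0.22, 0.252) in the Acb and of *Gng7* in the DS (0.66 ± 0.20, 0.931). With the lysate number as a block, which pairs heavy and lysate libraries of the same number, *Gng7* passed in the Acb (-0.79, adjusted p = 0.0316). With this block 0.635% of all genes passed. *Gng7* also passed with every gene of at least 1 read kept (0.0408). With the block and the transcript length trend removed, *Gng7* passed as well (0.00412), as did *Arpp21* (0.00677). With the coding length trend removed and no block, the value of *Gng7* there was near 0. In pairs of the same number in the Acb the ratio of heavy to lysate CPM of *Gng7* was 1.07, 0.724 and 0.875 in wild-type and 0.730, 0.384 and 0.437 in rpS6P-/- mice, which overlap.

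The genotype difference in heavy fractions was set against region over 12 libraries, with wild-type and rpS6P-/- mice of both regions. *Gng7* had the largest value of the 9, a log2 difference of -1.26 ± 0.30 between its genotype effect in the Acb and that in the DS (SE, adjusted p = 0.0705), and *Arpp21* followed at -0.99 ± 0.28 (0.125). Neither passed, and edgeR called 0.00592% of all genes there. At an unadjusted p under 0.05 there were 3 of the 9, *Pde1b* being the third at 0.58 ± 0.25 (0.289), against 13.8% of all genes. DESeq2 called both *Gng7* (-1.26, adjusted p = 0.0160) and *Arpp21* (0.0427), with 1.40% of all genes. *Gng7* passed in edgeR without the replicate 1 libraries of rpS6P-/- mice in both regions (-1.64, 0.0150) or the replicate 3 libraries of wild-type mice in both (-1.48, 0.0383). With the coding length trend removed, the difference was -0.12 for *Gng7* (0.881) and -0.04 for *Arpp21* at its short coding sequence (0.985). The ratio of heavy to lysate was also set against region in wild-type mice. None of the 9 genes passed there in edgeR (0% of all genes) or DESeq2 (0.00599%), none had an unadjusted p under 0.05 (4.60% of all genes did), and values lay between -0.22 and 0.30.

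The 9 genes were read beside other genes of the same pathway, taken from lists of symbols. Of 14 phosphatases and partners of DARPP-32, 9 were called higher and 2 lower in heavy fractions of wild-type Acb, 4 and 1 in rpS6P-/- Acb, and 9 and 1 in the DS of both genotypes. Of all genes tested, 13.0%, 7.70%, 12.8% and 13.8% were called higher and 12.9%, 9.50%, 11.5% and 14.8% lower in wild-type Acb, rpS6P-/- Acb, wild-type DS and rpS6P-/- DS, which is the background of every count of the lists in heavy fractions. *Arpp19*, which encodes a small phosphatase inhibitor, was higher by 0.84 (log2, adjusted p = 6.37e-05) in wild-type Acb and by 0.95 (1.77e-05) in wild-type DS, and *Ppp3r1*, the regulatory subunit of calcineurin, by 0.81 (2.63e-05) and 0.82 (1.64e-05). *Ppp1r9b*, the phosphatase 1 anchor spinophilin, was lower in all 4 comparisons, from -0.70 to -0.36 (adjusted p from 0.00645 to 0.0252). The list's median was 0.52, 0.28, 0.59 and 0.49 in the same order, beside medians over all genes tested of 0.03, 0.01, 0.00 and 0.03.

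Of 18 other G protein genes 7, 5, 7 and 7 were called higher and 3, 3, 3 and 2 lower in heavy fractions, in the same order. Gamma subunits, the class of *Gng7*, were called in both directions. *Gng13* and *Gng10* were lower in all 4, by log2 fold changes of -3.08 to -1.10 and of -1.95 to -0.52. *Gng5* was lower in wild-type Acb (-0.94), rpS6P-/- Acb (-2.01) and wild-type DS (-0.93). In wild-type and rpS6P-/- Acb, *Gng13* stood at -2.51 and -3.08 and *Gng10* at -1.18 and -1.95. Levels of *Gng13* were low, at 1.69 CPM in rpS6P-/- Acb heavy fractions and 13.6 CPM in lysates. For the ratio between genotypes in the Acb, edgeR called none of these 18 genes and 0% of all genes. *Gng11* was higher in wild-type Acb (1.16), wild-type DS (1.36) and rpS6P-/- DS (0.80), *Gng2* in wild-type Acb (0.58) and rpS6P-/- DS (0.75) and *Gng3* in rpS6P-/- DS (0.91). *Gnb2*, a beta subunit, was higher by 0.60 in wild-type Acb (adjusted p = 0.00298) and 0.76 in wild-type DS (1.74e-04). None of the phosphodiesterase genes outside the 9 was called higher in any of the 4, and 1 of 15, 0 of 15, 1 of 15 and 3 of 14 were called lower, *Pde1c* by -0.83 in wild-type Acb (7.12e-04) and -1.15 in wild-type DS (0.00137). Of the other adenylyl cyclases 0 were called higher in any and 2 of 7, 1 of 8, 1 of 7 and 3 of 7 lower, with *Adcy9* lower in all 4 (-0.81 to -0.58). Of 10 protein kinase A genes 4, 4, 1 and 1 were called higher and 3, 2, 4 and 3 lower. Of 6 or 7 genes of R7 RGS proteins and their partners, 1 was called higher in each comparison and 1, 0, 2 and 1 lower.

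Between regions, *Rgs7bp*, which encodes the membrane anchor of R7 RGS proteins such as RGS9, was lower in Acb than in DS lysates by -1.05 (log2, adjusted p = 2.19e-09) in wild-type and -0.98 (1.33e-10) in rpS6P-/- mice. *Adcy1* was lower by -1.55 (1.03e-10) and -1.60 (3.08e-14), the 1 cyclase called of 7. Of 15 other phosphodiesterases, 1 was called higher and 2 lower in wild-type lysates, and 2 higher and 1 lower in rpS6P-/- lysates. Of all genes, 12.7% and 10.9% were called in either direction. *Pde1c* was higher by 1.07 (5.98e-05) and 0.92 (2.74e-04), and *Pde1a* was lower by -0.39 (0.0326) and -0.56 (0.00117). *Pde4a* was lower in wild-type (-0.52, 0.0124) and *Pde9a* higher in rpS6P-/- mice (0.94, 0.0321). *Drd2*, the D2 dopamine receptor, was the receptor called of 5 in wild-type lysates (-0.43, 0.0466). Of the 14 phosphatases and DARPP-32 partners, 7 were called lower in wild-type and 6 in rpS6P-/- lysates of the Acb, against 6.15% and 6.03% of all genes, and none higher, with *Arpp19* at -0.79 (9.40e-08) and -0.74 (9.18e-09). None of the 7 lists had a gene called between genotypes in any of the 4 comparisons. Of all genes tested, only 0.00650% passed in Acb lysates, 0.122% in DS lysates, 0.0440% in DS heavy and 0% in Acb heavy fractions. With so few calls over all genes, the lack of calls in the lists says little about them.

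Across the 12 lysates, which span 2 regions and 2 genotypes, the 3 phosphodiesterases varied together, with Pearson's r of log2 CPM of 0.92 for *Pde10a* and *Pde2a*, 0.91 for *Pde10a* and *Pde1b* and 0.88 for *Pde1b* and *Pde2a*. *Arpp21* and *Gnal* stood at 0.90, and *Ppp1r1b* and *Adcy5* had the lowest value, -0.49. Across the 12 heavy libraries *Arpp21* and *Gng7* had the highest r of the 36 pairs, 0.95, and *Arpp21* and *Pde1b* the lowest, -0.72. These values are descriptions over libraries of 2 regions and 2 genotypes. The genes whose log2 CPM over the 12 lysates was most like the mean profile of the 9 were *Dnm1l* (r = 0.94), *Ikzf5* (0.92), *Dlg2* (0.92), *Lrif1* (0.92) and *Cul3* (0.92), out of 11482 genes compared. For single genes the closest were *Mapk10* for *Pde10a* (0.99), *Vamp2* for *Ppp1r1b* (0.97), *Anks1b* for *Pde2a* (0.96), *Dlg3* for *Rgs9* (0.95), *Rasd2* for *Pde1b* (0.94), *Dbpht2* for *Gnal* (0.90), *Gnal* for *Arpp21* (0.90), *Aven* for *Gng7* (0.87) and *St5* for *Adcy5* (0.84).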

How the data were processed

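Polysome-bound and total RNA of the Acb and DS was sequenced in 24 libraries (TruSeq stranded kit). By the study's methods, *E. coli* sequences contaminated the libraries, and several sequencing runs were made for that reason. The raw counts of reads per gene deposited by the authors were used. Per the labels and the study's methods they were made on mm10 with TopHat2 2.0.13, Bowtie2 2.2.3 and HTSeq 0.6.1p1 (union mode, opposite strand), without normalization or filter. Reads are not molecules counted by identifiers, so depth bounds counting error only.

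A gene entered a comparison if its libraries there held at least 15 reads in all. Every comparison was fitted over all such genes in edgeR 4.0.16 (TMM, glmQLFit with legacy settings, glmQLFTest; R 4.3.3). A call is a Benjamini-Hochberg p, taken across the whole fit, below 0.05. Alternatives were DESeq2 1.42.0, other size factors and filters, 1 fit of all libraries, a block for the lysate or replicate number, removal of length trends (loess of log2 CPM) and leaving out each library. Levels are CPM with TMM factors over all 24 libraries. The heavy and lysate libraries of 1 lysate number are paired because, by the study's methods, total RNA is a part of the lysate loaded on the gradient (a heavy library joins the fractions of more than 1 such lysate), and their residuals correlated between -0.03 and 0.08 over 12 pairs. Highest correlation between any 2 libraries was 0.98 and none were identical. The members and gene lists were chosen with earlier results of these data known. Genes named outside the 9 were called genes of a list with at least 50 reads on average and the biggest changes (up to 3 a direction), plus those most alike by correlation over lysates. Lengths and sequences came from GENCODE M21, positions from a RefSeq table of GRCm38. A result of the receptor list is not reported here. Scripts were tested on simulated data. Figures were drawn with matplotlib.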

Additional observations from a re-analysis of the deposited data

How the results depend on the processing

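Of 1584 alternative values of the 9 genes, 1511 kept their direction and side of the threshold or crossed 0 uncalled (105), 23 lost a call, 43 gained one and 7 called or newly called values turned. Of 176 counts of genes called among the 9, 153 stayed within 1.5 times the main count. In Acb heavy fractions the count between genotypes was 0, but 3 with DESeq2 and 2 with all 24 libraries in one fit. For heavy over lysate in wild-type DS it was 5, but 3 with the transcript length trend removed, 2 with the coding length trend removed and 3 with *Arpp21* at its short coding sequence, and in rpS6P-/- DS it was 3, but 5 in the last of these. Between regions it was 5 in wild-type lysates but 3 with all libraries in one fit, 1 in wild-type heavy fractions but 2 in that fit and 3 with either length trend removed, and 4 in rpS6P-/- heavy fractions but 2 with the coding length trend removed and 1 with *Arpp21* at its short coding sequence. For the heavy to lysate ratio between genotypes in the Acb it was 0, but 1 with genes of at least 1 read kept, and for the genotype by region difference it was 0, but 2 with that filter, with DESeq2 and with all libraries in one fit. With the coding length trend removed, values turned to 0.073 for *Adcy5* (heavy over lysate, wild-type DS), -0.51 for *Gng7* (the same, rpS6P-/- DS), 0.17 for *Gng7* and, at its short coding sequence, 0.11 for *Arpp21* (Acb over DS, rpS6P-/- heavy). The cause was not tested.

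The block was the lysate number, shared by its heavy and lysate library, for heavy over lysate and for the ratios, and the replicate number alone elsewhere, within a genotype for the genotype by region difference. With this replicate block, the count was 4 in place of 1 between regions in wild-type heavy fractions (4 also with the transcript length trend removed), 1 in place of 0 for the ratio between genotypes in the Acb (2 with that trend removed), and 2 in place of 0 for the genotype by region difference, with or without that trend, where *Gng7* stood at -1.28 (edgeR, adjusted p = 6.81e-05) and *Arpp21* at -1.01 (0.00199). Other counts stayed within 1.5 times. Residuals of same-numbered libraries correlated from -0.24 to 0.20 between regions (1 of 12 pairs over 0.1) and from -0.28 to 0.32 between genotypes (2 of 12). The sources used here do not say whether the same number marks the same mice in both regions. Leaving out 1 library at a time (for the ratios both libraries of a lysate, for the genotype by region difference the same-numbered libraries of both regions) gave 2 to 4 genes called for heavy over lysate in wild-type Acb, 4 to 5 in wild-type DS and 3 to 5 in rpS6P-/- DS, 3 to 5 between regions in wild-type lysates, 0 to 2 in wild-type heavy and 3 to 4 in rpS6P-/- heavy fractions, and 0 to 1 for the genotype by region difference. Over all genes, calls between genotypes in Acb heavy fractions numbered 0, but 549 with genes of at least 1 read kept, 1090 with DESeq2, 98 with the replicate number as a block and 813 with all libraries in one fit. For the genotype by region difference they numbered 1, but 353, 236, 479 and 433. For heavy over lysate they fell with the coding length trend removed, from 4158 to 2503 in wild-type Acb, from 3797 to 2266 in wild-type DS and from 4557 to 2436 in rpS6P-/- DS, and between regions in wild-type heavy fractions they rose from 1316 to 2247 with the block. For the ratio between genotypes in the Acb they numbered 0, but 107 with genes of at least 1 read kept and 106 with the block. In the other comparisons between genotypes, where at most 19 genes were called, they ranged from 0 to 95 over the alternatives, and in the other comparisons of ratios from 0 to 7. Depth (at least 9280589 reads) leaves each of the 9 genes at least 2050 reads per library, so counting error is not the main limit of these values. The spread between the 3 libraries of a group can hold differences between pools and between sequencing runs, which cannot be told apart here.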
